A study of Mus musculus with 74 samples.

Results

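Of 55943 transcript identifiers counted in a mouse blood progenitor line, 69 were lower in all 3 cohesin knockdowns than in the control. They were chosen by level and by the absence of overlap between libraries. A transcript was taken when it averaged at least 2 CPM, counts scaled to a common library total, in the control, when its mean in each of the 3 knockdowns was at most the control mean divided by 1.5, and when every knockdown library lay below every control library. Of the 11346 transcripts at 2 CPM or more in the control, 70 (0.617%) met all of this, and 1 of them is left out by the rule. The mirrored rule, higher in all 3, was met by 77 (0.679%).

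The cells are HPC-7, a line of mouse haematopoietic progenitors grown with stem cell factor. Cells of every group, controls included, expressed a short hairpin RNA switched on by 72 h of doxycycline. The hairpin targeted luciferase in the control (Luc) and Stag2, Rad21 or Smc1a in the knockdowns. Progenitor libraries (HPC) comprised 3 with the Luc hairpin, 3 with shStag2, 3 with shRad21 and 2 with shSmc1a. Erythroid-induced libraries (Ery) comprised 2 with the Luc and 2 with the Stag2 hairpin, which had received erythropoietin (4 U/l for 48 h) while stem cell factor was reduced from 100 to 20 ng/ul. The labels do not say how many hairpins or cultures stand behind a group, or whether Ery and HPC libraries share a culture, so the p-values reflect library-to-library spread that may be only technical. The word inhibitor stands in the HPC titles without explanation and is absent from the Ery titles.

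Cohesin is a ring that encircles DNA. Smc1a and Smc3 form its long arms, Rad21 closes the ring, and Stag2 or its relative Stag1 binds Rad21 as an accessory subunit. The complex holds sister chromatids together and extrudes chromatin loops that are halted at Ctcf sites, which sets which enhancers and promoters meet. In blood progenitors, loss of cohesin function is known to impair differentiation, and the genes of its subunits are mutated in myeloid malignancies. Erythropoietin drives progenitors into the red cell lineage. Promoter contacts and chromatin immunoprecipitation data of this series were not used here.

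The count tables name transcripts by identifier alone, and no table used here pairs these with gene symbols or positions. Roles of the members, the levels of the hairpins' target genes and the markers of the labelled cell type were therefore not analysed here, and no sequence is shown. The members are numbered 1 to 69 from the highest to the lowest mean in HPC Luc, and identifiers are printed for 4 of them. Those are the member with the lowest value of its largest knockdown ratio, the member with the lowest p among those that fell with shStag2 in Ery, and the 2 members that rose there. Counts are per transcript with no division by length, so CPM compares libraries within a transcript. Orders, medians and sums of CPM across transcripts, as given below, also carry transcript length.

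The libraries held 22288469 to 33355332 assigned counts. CPM were taken over the total without the most counted identifier, which held 25.8% to 33.6% of them. In a principal component analysis of the HPC libraries, the second component (18.9% of the variance) placed the shStag2 and shRad21 libraries numbered 1 and 2, at -18.3 to -14.0, apart from those numbered 3 and both shSmc1a libraries, at 1.80 to 18.2. Luc replicates 1 and 2 lay at 6.34 and -0.65, and Luc replicate 3 at 14.7. The labels name no batch. The members' values within each of these sets of libraries are given below. Luc replicates 1 and 2 served there as the control of the first set, and Luc replicate 3 of the second. On this component, Luc replicates 1 and 2 did not lie with the knockdown libraries of the first set.

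In HPC the members' control means ran from 2.23 to 103.6 CPM with a median of 12.4, against a median of 19.5 for all 11346 transcripts. At least 10 CPM was reached by 37 members, 22 stayed under 5 and 10 exceeded 50. Their summed level was 1586, 1630 and 1665 CPM in the 3 Luc libraries. It was 823, 817 and 623 in shStag2, 783, 658 and 436 in shRad21, and 814 and 709 in shSmc1a. All 8 knockdown libraries thus held a much smaller summed level than any Luc library, which is what the rule selects, and shRad21 replicate 3 held the least. None of these HPC differences was tested, because the same values chose the members. In bulk samples such as these, fewer cells of a type and less RNA per cell cannot be told apart.

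**Figure D1:**
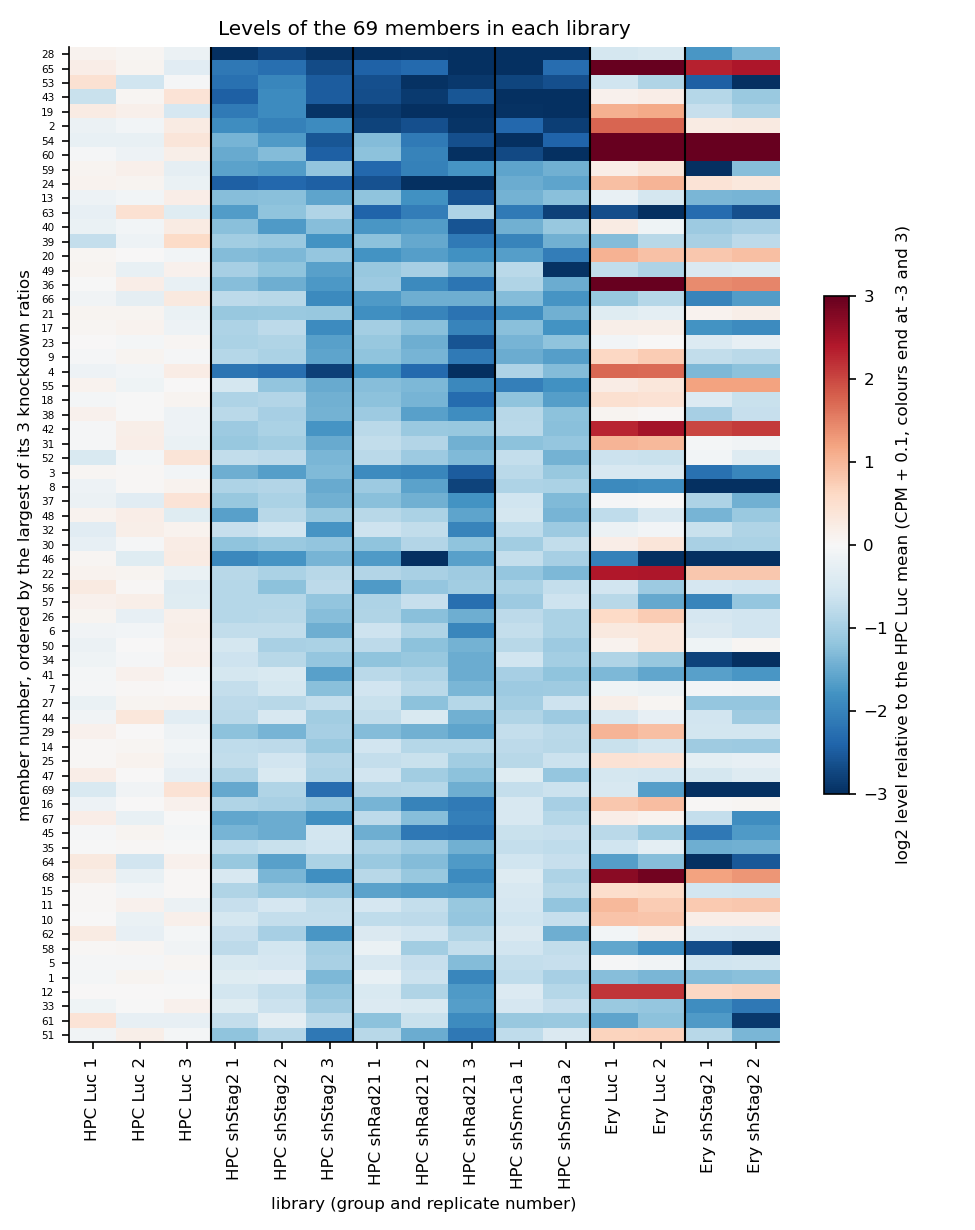
Level of each of the 69 members (rows, ordered by the largest of their 3 knockdown ratios, with member numbers) in each of the 15 libraries (columns), as log2 of CPM + 0.1 relative to the HPC Luc mean, with colours ending at -3 and 3. The 8 HPC knockdown columns are blue throughout by the rule, the Ery Luc columns hold 21 members well above and 21 well below the HPC Luc level, and the Ery shStag2 columns are mostly bluer than Ery Luc.

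The depth of the difference varied from member to member and from hairpin to hairpin. Relative to the Luc mean, the median member stood at 0.456 with shStag2 (range 0.125 to 0.658), 0.387 with shRad21 (0.0932 to 0.647) and 0.506 with shSmc1a (0.0916 to 0.658). The medians over all 11346 transcripts were 1.02, 1.02 and 1.01. At most 1/2 of the control was reached by 45 members with shStag2, 54 with shRad21 and 34 with shSmc1a, and by 28 in all 3 at once. Only 5 members were at most 1/4 of the control in all 3. The background of single knockdowns was small as well: 1.22% of transcripts met the fold and the absence of overlap with shStag2, 1.73% with shRad21 and 1.92% with shSmc1a. In the higher direction the shares were 1.63%, 2.52% and 2.65%.

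Among the knockdowns, shRad21 gave the lowest mean for 43 of the 69 members, shSmc1a for 17 and shStag2 for 9. Over all 11346 transcripts these shares were 34.7%, 41.9% and 23.3%. The shRad21 mean was at or below the shStag2 mean for 59 members, and for 54.1% of all transcripts. Within a member the highest of the 3 ratios, which share 1 Luc mean and are limited by the rule, was 1.40 times the lowest at the median and at most 1.5 times for 43 members. They differed more than 2-fold for 12 members, and most in member 24, by 3.20-fold. That member read 27.1, 26.5 and 22.0 CPM in Luc, 4.54, 4.87 and 4.56 in shStag2, 4.01, 2.31 and 1.75 in shRad21, and 8.88 and 8.35 in shSmc1a. Here the shSmc1a libraries were the highest of the knockdowns, yet far below Luc.

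**Figure D2:**
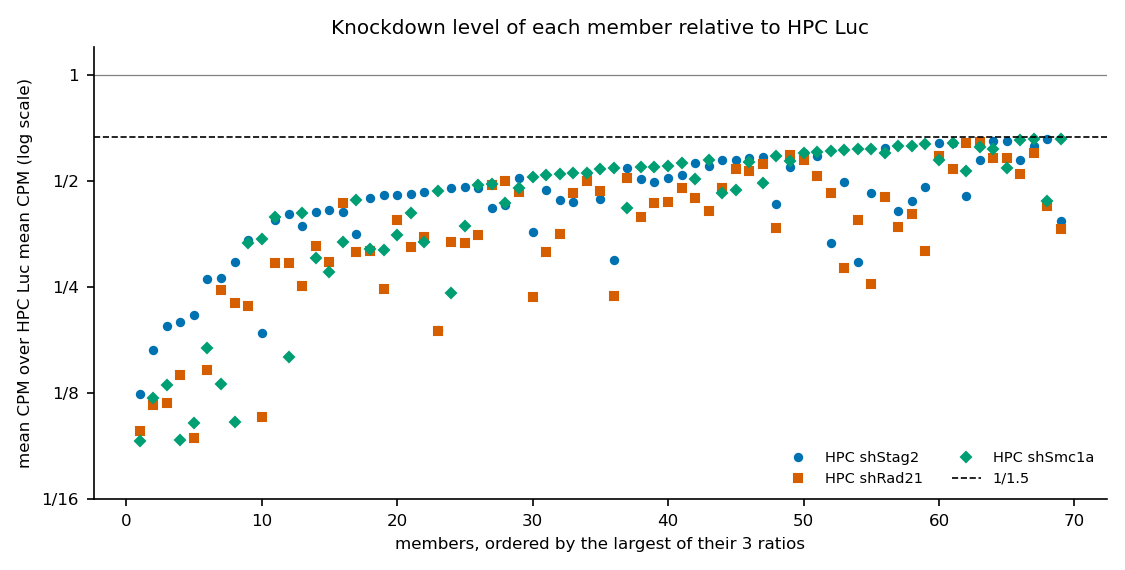
Mean CPM of each member in HPC shStag2 (blue circles), shRad21 (orange squares) and shSmc1a (green diamonds) divided by its HPC Luc mean, on a log scale, with members ordered by the largest of the 3 ratios and the threshold of 1/1.5 dashed. Most members lie between 1/4 and the threshold, the 5 leftmost lie at or below 1/4 in all 3 knockdowns, and the shRad21 point is the lowest of the 3 for 43 members.

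ENSMUST00000026911.4, member 28, was the lowest relative to control when judged by its highest knockdown. It read 21.7, 21.3 and 17.8 CPM in HPC Luc. With shStag2 it read 2.24, 2.83 and 2.50 CPM, with shRad21 2.06, 2.52 and 1.35, and with shSmc1a 1.94 and 1.77. The lowest Luc library was 6.30 times the highest knockdown library, the widest gap of any member. Its means of 20.2 ± 2.1 CPM in Luc (SD, n = 3) and 2.52 ± 0.29 (n = 3), 1.98 ± 0.59 (n = 3) and 1.85 ± 0.12 (n = 2) in the knockdowns put it 8.03-fold, 10.2-fold and 10.9-fold lower.

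Of the 8 most abundant members, member 2 had the lowest value of its largest ratio, 0.263. It read 89.9, 95.7 and 119.8 CPM in Luc, 27.9, 25.0 and 27.4 in shStag2, 14.7, 16.4 and 13.2 in shRad21, and 19.9 and 14.2 in shSmc1a. Its shStag2 libraries were all higher than its shRad21 and shSmc1a libraries. Member 4 had another order, with 82.1, 85.7 and 106.4 CPM in Luc, 20.0, 18.9 and 13.0 in shStag2, 26.0, 18.1 and 7.14 in shRad21, and 48.2 and 37.3 in shSmc1a. Both shSmc1a libraries stood above every shStag2 and shRad21 library. In member 3, too, shSmc1a was the highest knockdown. Its means were 95.1 ± 4.9 CPM in Luc and 34.1 ± 3.8 in shStag2 (SD, n = 3 each), 22.3 ± 4.9 in shRad21 and, from 2 libraries, 48.8 ± 8.0 in shSmc1a.

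Members 19, 43, 53 and 65 were, with member 28, the ones at 1/4 or less in all 3 knockdowns. Member 19 read 38.0, 35.9 and 22.7 CPM in Luc and 7.33, 8.68 and 4.12 in shStag2. It read 4.34, 3.79 and 0.876 CPM in shRad21, and 4.04 and 2.59 in shSmc1a. Its Luc libraries differed among themselves, replicate 3 standing at 0.614 of the mean of the other two, but none came near a knockdown library. The other three were rarer, at 6.13, 3.66 and 2.53 CPM in Luc, with knockdown means between 0.293 and 1.21 CPM. In all, 12 members had fewer than 10 counts in some knockdown library, with 1 count as the lowest, so counting error weighs on their ratios.

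At the other end the groups barely parted. The lowest Luc library of member 64 was 1.02 times its highest knockdown library, and 4 members had a gap under 1.1. Over all members this gap had a median of 1.40, and 11 exceeded 2. Member 1, the most abundant, read 99.9, 109.8 and 101.0 CPM in Luc. With shStag2 it read 80.5, 81.2 and 40.6 CPM, with shRad21 88.5, 65.8 and 26.6, and with shSmc1a 60.8 and 51.9. Its libraries numbered 3 were much lower than the other shStag2 and shRad21 libraries, and without them its shStag2 and shRad21 means, at 0.771 and 0.736 of Luc, would miss the threshold.

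The 2 members nearest the fold threshold had largest ratios of 0.658 and 0.658, and the 2 nearest transcripts outside had 0.668 and 0.670 with no overlap. Control means nearest the floor were 2.23 and 2.26 CPM inside. Just outside, transcripts at 1.97 and 1.93 CPM met the other criteria, with knockdown means from 0.0601 to 0.343 CPM. Without a limit on fold, 306 transcripts had every knockdown library below every Luc library. No count in the higher direction stands beside it, so it is a description only.

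The libraries numbered 3 carried lower levels of the members in both knockdowns that have one. The shStag2 library numbered 3 lay below the other two for 49 members and above both for 12, at a median of 0.753 of their mean. The same library lay below both for 54.1% of all transcripts, at a median of 0.950. For shRad21 it was 58 below and 6 above, at a median of 0.664, against 44.9% and 0.978 over all transcripts. Luc replicate 3 lay below both other Luc libraries for 31 members and above both for 28, with a median of 0.979. Over all transcripts it lay below both for 42.7%, at a median of 0.982. Members were thus further from control among the libraries numbered 3 than among those numbered 1 and 2, in which the median ratios were 0.371 and 0.509 with shStag2 and 0.271 and 0.465 with shRad21.

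Within the libraries numbered 1 and 2, 62 members were at most 1/1.5 of the Luc mean with shStag2 and 65 with shRad21, and the highest ratios were 0.771 and 0.775. Against Luc replicate 3 alone, 64 met it with shStag2 replicate 3, all 69 with shRad21 replicate 3 and 63 with shSmc1a. The highest ratio there was 0.748. The rule itself places every member below control in both sets of libraries. It also limits the sizes, because the same libraries make up the means that had to be at most 1/1.5 of control. These counts are therefore descriptions, with no share over all transcripts beside them. With the rule applied to libraries numbered 1 and 2 alone and without shSmc1a, 126 transcripts met it, 60 of them members. The part of the unnamed difference between library sets in these depths was not tested.

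The Ery libraries took no part in the choice, so the Stag2 hairpin could be tested there. Of the 69 members, 40 (58.0%) fell with shStag2 in Ery, 2 rose and 27 did not pass (edgeR's quasi-likelihood test, adjusted p under 0.05 over 18065 transcripts). Among the 11346 transcripts at 2 CPM or more in HPC Luc, 4.72% fell and 5.47% rose, and among all those tested 3.7% and 3.99% (7.68% in either direction). The members' median log2 fold change was -1.01, against -0.02 for the 11346. Both shStag2 libraries lay below both Luc libraries for 56 members (81.2%), where the background is 36.4%, and above both for 6, where it is 25.7%. Every member entered this test through its HPC Luc level, with no demand on its Ery level.

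Of the 40 that fell, 33 did so at least 2-fold, with log2 fold changes from -3.42 to -0.45. The lowest belongs to member 69, whose Ery shStag2 libraries stood at 0 and 0.182 CPM, so the size of that value depends on the prior count. The next lowest, -2.98, is that of member 4. Among the 11346 transcripts, 46 had a log2 fold change of -1.5 or less, and 18 of those were members. The ratio of Ery shStag2 to Ery Luc means was at most 1/2 for 36 members (52.2%), and for 1.21% of the 11346. Without Ery Luc replicate 1 or 2, 28 and 33 members passed as lower, and without Ery shStag2 replicate 1 or 2, 31 and 30. Over all transcripts these fits called 322, 353, 312 and 320 as lower, against 668 with all libraries, and 660, 678, 676 and 675 in either direction, against 1388. The spread in this fit is shared with the HPC libraries that chose the members, and with the 4 Ery libraries alone 48 of 67 members tested passed as lower, where 11.6% of all 15411 transcripts tested did.

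**Figure D3:**
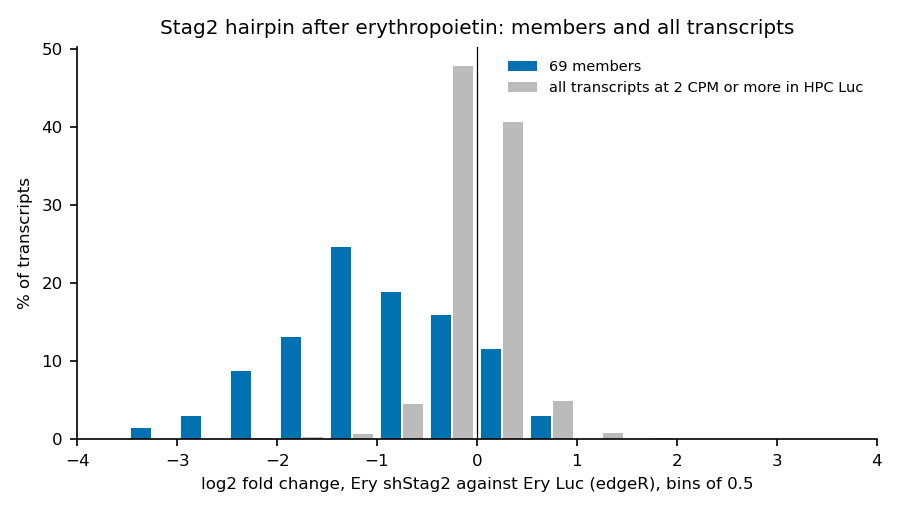
Share of transcripts (vertical axis, %) by log2 fold change of Ery shStag2 against Ery Luc from edgeR (horizontal axis, bins of 0.5), for the 69 members (blue) and for the 11346 transcripts at 2 CPM or more in HPC Luc (grey). The members have a median of -1.01, while 47.9% of the grey transcripts lie between -0.5 and 0 and 40.7% between 0 and 0.5.

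ENSMUST00000028944.3, member 22, had the lowest p of those that fell. The Ery Luc libraries gave 139.6 and 140.7 CPM, the Ery shStag2 libraries 45.7 and 46.1. In HPC it had read 28.0, 27.7 and 23.0 CPM in Luc, 14.6, 13.6 and 14.7 in shStag2, 14.1, 13.3 and 12.5 in shRad21, and 11.7 and 10.2 in shSmc1a. The libraries of each group lay close together, and Ery shStag2 stood above the HPC Luc level although far under Ery Luc. Its log2 fold change in Ery was -1.59 (SE 0.09, adjusted p = 8.01e-09 by edgeR), and it was lower in 2 of 2 libraries.

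Member 29, also among the 6 lowest p, read 37.8 and 34.9 CPM in Ery Luc, against 12.8 and 12.7 in Ery shStag2 (log2 fold change -1.49, SE 0.13, edgeR adjusted p = 8.33e-07).

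ENSMUST00000026911.4 read 14.0 and 14.7 CPM in Ery Luc, against 5.97 and 7.82 in Ery shStag2. The groups did not overlap, but the distance was much smaller than the one described for HPC. This member was picked as the lowest in HPC, so a smaller distance in Ery is partly set by the choice. Its log2 fold change was -1.03 (SE 0.18, adjusted p = 0.000927 by edgeR), with both shStag2 libraries lower. Across the 69 members, the log2 ratios for shStag2 in HPC and in Ery, which share no library, had a Spearman rho of 0.470 and a Pearson r of 0.468. Members are not independent points, and the HPC values were limited by the rule. The HPC ratio was the lower of the 2 for 41 members, a count that the rule tilts towards HPC.

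**Figure D4:**
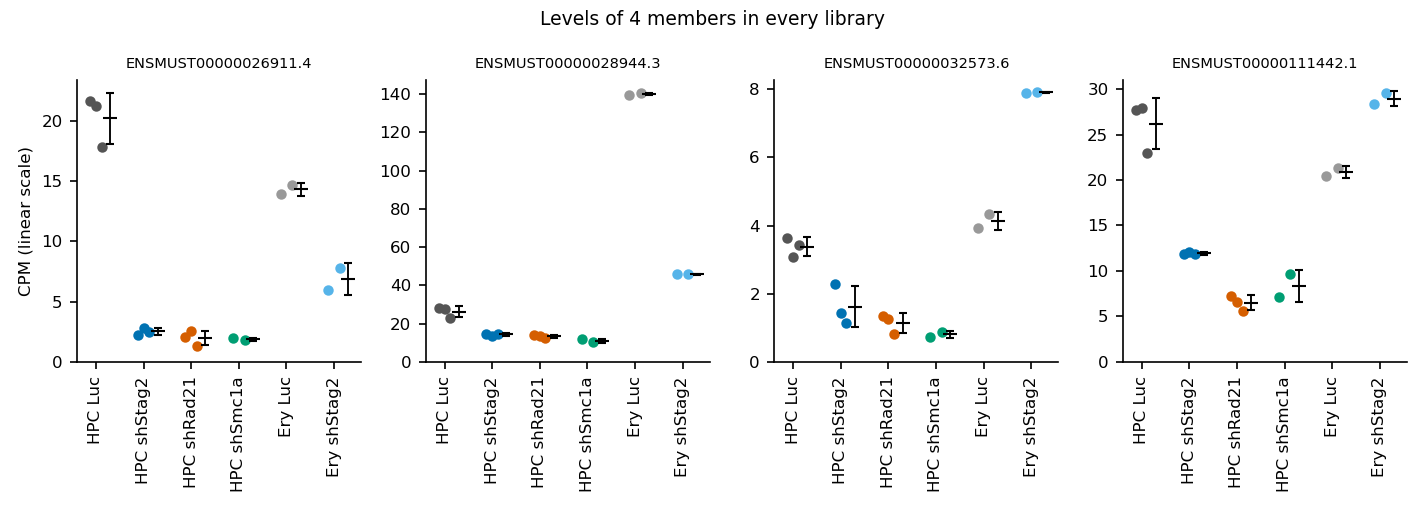
CPM of 4 members in every library (points, linear axes from 0), with the mean and SD of each group beside them in black. ENSMUST00000026911.4 and ENSMUST00000028944.3 are lower with the Stag2 hairpin in HPC and in Ery, while ENSMUST00000032573.6 and ENSMUST00000111442.1 are lower with it in HPC and higher in Ery.

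The 2 members that rose had been lower with the same hairpin in HPC. ENSMUST00000032573.6, member 55, read 3.94 and 4.33 CPM in Ery Luc, against 7.91 and 7.91 in Ery shStag2. In HPC it read 3.63, 3.08 and 3.42 CPM in Luc against 2.29, 1.43 and 1.12 in shStag2, with 0.74 to 1.34 in the other knockdowns. So the Stag2 hairpin went with a lower level before erythropoietin and a higher one after it. The Ery log2 fold change was 0.96 (SE 0.22, adjusted p = 0.0107 by edgeR), higher in 2 of 2 libraries.

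ENSMUST00000111442.1, member 21, read 20.5 and 21.4 CPM in Ery Luc, against 28.4 and 29.6 in Ery shStag2. In HPC it read 27.7, 27.9 and 23.0 in Luc and 11.8, 12.1 and 11.9 in shStag2. It read 7.23, 6.61 and 5.59 CPM in shRad21, and 7.11 and 9.62 in shSmc1a. Again no library of one group crossed into the other at either stage. Its Ery log2 fold change was 0.49 (SE 0.13, adjusted p = 0.0230 by edgeR), higher in 2 of 2 libraries. Neither rise passed when any 1 Ery library was left out, with adjusted p of 0.0649 to 0.118 for the first and 0.0939 to 0.169 for the second. The difference between the 2 stages was not tested, as the HPC values chose the members.

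Of the 27 that did not pass, 19 had estimates below 0 and 8 above, from -2.08 to 0.80 in log2. Levels were low for many: 17 of them stood under 5 CPM in Ery Luc, as did 5 of the 40 that fell. Member 46, at 1.25 and 0.427 CPM in Ery Luc, against 0.161 and 0.227 in Ery shStag2, had the lowest estimate, and its SE was 0.70. Others were abundant. Member 1 read 42.3 and 40.3 CPM in Ery Luc, against 42.2 and 43.6 in Ery shStag2, with a log2 fold change of 0.08 (SE 0.33, edgeR adjusted p = 0.939). Member 5 read 83.0 and 79.8 CPM in Ery Luc, against 56.6 and 58.2 in Ery shStag2, and member 6 read 98.1 and 99.3, against 58.9 and 53.7. Their groups did not overlap, yet they missed the threshold (edgeR adjusted p = 0.0866 and 0.0655). The spread behind these SEs and p-values is shared with the HPC libraries and is not that of the Ery libraries alone.

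Member 20, 2.42-fold to 3.62-fold lower in the HPC knockdowns, read 58.0 and 51.8 CPM in Ery Luc, against 49.0 and 52.4 in Ery shStag2 (log2 fold change -0.10, SE 0.11). Members 7 and 11 were similar, with estimates of 0.08 (SE 0.17) and -0.05 (SE 0.16).

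**Figure D5:**
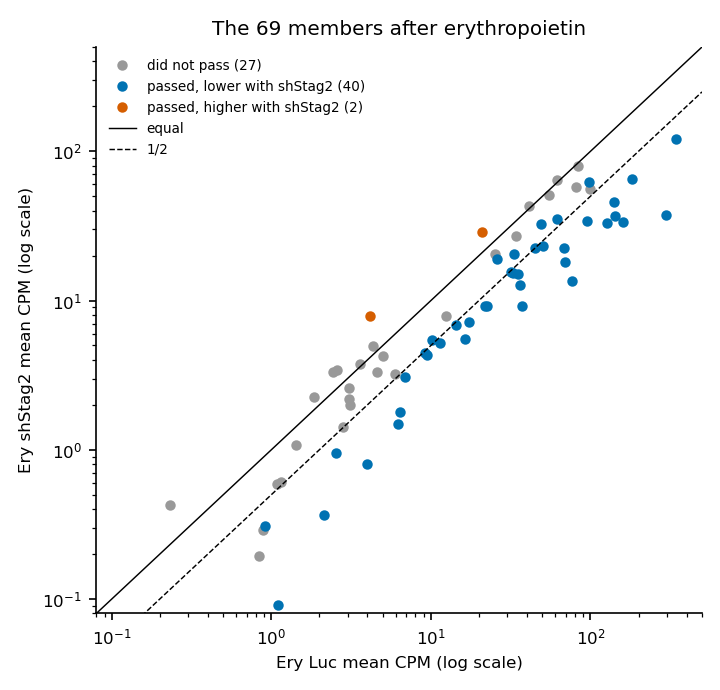
Mean CPM of the 69 members in Ery Luc (horizontal) and Ery shStag2 (vertical), both on log scales, coloured by edgeR's call, with lines of equality and of 1/2. The 40 members that fell lie under the line of equality, many of them under the line of 1/2, and the 2 that rose lie above it.

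The members differed widely in how their control level stood after erythropoietin, which is described without a test because HPC Luc was part of the rule. Both Ery Luc libraries were above all HPC Luc libraries and the mean at least 1.5 times higher for 21 members (30.4%, background 5.13%). The reverse held for 21 (30.4%, background 18.9%), and 27 met neither. The median ratio of Ery Luc to HPC Luc was 1.05 for the members and 0.946 for the 11346 transcripts. Among the members it ran from 0.0832 to 50.9.

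The 4 members with the highest ratio were rare or modest in HPC and abundant in Ery Luc. Member 60 read 3.06, 2.83 and 3.56 CPM in HPC Luc and 155.1 and 165.7 in Ery Luc. In Ery shStag2 it read 32.2 and 34.8, and in HPC shStag2 1.05, 1.23 and 0.499. The Stag2-hairpin cells thus also held far more of it after erythropoietin than before, but well under Ery Luc (log2 fold change -2.24, SE 0.17, edgeR adjusted p = 1.40e-07). Member 54 read 2.93, 2.95 and 4.43 CPM in HPC Luc, 143.6 and 142.9 in Ery Luc, against 36.0 and 38.2 in Ery shStag2 (-1.93, SE 0.16). Member 65 read 2.93, 2.70 and 1.97 CPM, then 80.5 and 72.9, and 12.9 and 14.0 (-2.49, SE 0.16), and member 36 averaged 12.1, 127.1 and 33.1 CPM in the same 3 groups (-1.92, SE 0.18). All 4 fell with shStag2 in Ery, in a test that uses the same Ery Luc libraries.

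Members 2 and 4, among the most abundant in HPC, also stood higher in Ery Luc. Member 2 read 339.8 and 343.7 CPM there and 120.8 and 122.0 in Ery shStag2 (log2 fold change -1.47, SE 0.13, edgeR adjusted p = 4.45e-07). Member 4 read 302.2 and 295.9 in Ery Luc, against 35.8 and 38.8 in Ery shStag2 (-2.98, SE 0.29, adjusted p = 2.16e-06). After erythropoietin, member 4 in shStag2 cells therefore lay below its HPC Luc libraries, and member 2 near the highest of its own.

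The 4 members with the lowest ratio were members 63, 46, 8 and 58. Member 8 read 58.1, 65.1 and 68.9 CPM in HPC Luc, 17.1 and 17.5 in Ery Luc, against 6.88 and 7.55 in Ery shStag2, a log2 fold change with shStag2 of -1.24 (SE 0.32, edgeR adjusted p = 0.0216). Member 58 averaged 3.25 CPM in HPC Luc, 0.915 in Ery Luc and 0.306 in Ery shStag2 and also fell (-1.59, SE 0.47, edgeR adjusted p = 0.0431). Members 63 and 46 were under 1 CPM on average in both Ery groups and did not pass. The Ery Luc libraries enter both this ratio and the shStag2 test.

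Set side by side, the Ery shStag2 mean was above the HPC shStag2 mean for 45 of the 69 members and below the HPC Luc mean for 53. Both HPC groups were used by the rule, so a level between them is partly set by the choice and was not tested. No counts over all transcripts stand beside these. The summed level of the members was 2974 and 2963 CPM in Ery Luc, against 1288 and 1299 in Ery shStag2. The Ery shStag2 libraries thus held less than any HPC Luc library (1586 to 1665) and more than any HPC knockdown library (436 to 823).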

How the data were processed

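The authors deposited raw read counts per transcript identifier, 1 table for each of 15 RNA-seq libraries. STAR 2.4.0, HTSeq and build mm10 are named in the submitters' processing notes. For counting settings, strand and annotation release, the value is not given in the sources used here. Overlapping or near-identical transcripts may therefore share or lose reads. Every table ends in 5 rows for unassigned reads, which stayed out of totals and tests: reads in no feature made up 9.19% to 18.0% of the total and ambiguous reads 24.2% to 26.9%. Replicates differed by more than sampling noise (chi-square per degree of freedom 2.21 to 38.8), so none were merged.

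CPM chose and describe the members. The test in Ery used edgeR 4.0.16 (R 4.3.3), with filterByExpr (18065 of 55943 identifiers kept), TMM scaling, 1 quasi-likelihood fit to the 15 libraries by group, and Benjamini-Hochberg adjustment with a threshold of 0.05. Each SE is the fold change over the root of F. The procedure was tested on simulated data. DESeq2 1.42.0 was an alternative, beside other scalings, filters and left-out libraries. The members and tests were chosen with earlier results of these data known. Members described singly are the 8 most abundant in HPC Luc, the 8 lowest by their largest ratio, those first by p in Ery (up to 6 each way), the 4 highest and 4 lowest by Ery Luc over HPC Luc, and those nearest the threshold, 25 in all. A few others (11, 20, 24, 49, 52, 64 and 69) were singled out after their values were seen, and 4 identifiers stand for the set. Gene lists prepared for the series could not be applied without symbols.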

Additional observations from a re-analysis of the deposited data

Results flagged for a closer look

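Members 7, 21, 49, 52, 55 and 63 had every HPC shStag2 library below every HPC Luc library and both Ery shStag2 libraries above both Ery Luc libraries. Their ratios of Ery shStag2 to Ery Luc means were 1.04, 1.39, 1.34, 1.36, 1.91 and 1.82, and their HPC ratios 0.575, 0.455, 0.409, 0.509, 0.479 and 0.404, in that order. The difference between the stages was not tested. Members 21 and 55 passed edgeR's test in Ery on their own, and the other four did not. Member 63 was near the floor, at 0.358 and 0.107 CPM in Ery Luc, against 0.484 and 0.364 in Ery shStag2. Its log2 fold change was 0.80 with an SE of 0.73, so its ratio rests on few counts. Members 49 and 52 were low as well, averaging 2.57 and 2.43 CPM in Ery Luc. Both shStag2 libraries lay above both Luc libraries for 25.7% of the 11346 transcripts in Ery.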

How the results depend on the processing

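The choice of members moved little with scaling: 57, 67 and 79 transcripts met the rule with the most counted identifier kept in, with TMM and with DESeq2 scaling, and 56, 62 and 69 of them were members. With a fall of at least 2-fold 28 met it, and without the libraries numbered 3 and shSmc1a 126. Leaving out 1 HPC library gave 61 to 91. The rule held the members' HPC ratios well under 1, so their side of 1 is no check of the scaling. In Ery, the members' median ratio of shStag2 to Luc was 0.4916. It was 0.5002 with the most counted identifier kept in, 0.4985 with TMM and 0.4992 with DESeq2 scaling. Keeping the most counted identifier moved the median of all transcripts for shStag2 in HPC to 0.10 in log2.

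For shStag2 in Ery, the 1388 calls (668 lower, 720 higher) became 3701 (1793 and 1908) with the 4 Ery libraries alone. They became 2274 (1143 and 1131) with the replicate block, the library number within each stage. DESeq2 called 671 of 18065 transcripts as lower, and the fit without a filter 767 of 30033. Leaving out 1 Ery library gave 660 to 678 calls (312 to 353 lower, 325 to 364 higher), where the lone library of a group is assumed to vary like the other groups. Members that fell numbered 43 with DESeq2, 46 without a filter, 48 with the Ery libraries alone, 45 with the replicate block and 28 to 33 with 1 Ery library left out. All 40 were among those called in each of the first 4 of these. The 2 members that rose did so in each of these fits other than those leaving out a library, which called 0 each at the adjusted threshold and 2 at an unadjusted p under 0.05 by edgeR. In HPC, the libraries numbered 3 deviated together. Their r was 0.184 for Luc and shStag2, 0.187 for Luc and shRad21, and 0.323 for shStag2 and shRad21. The main fit holds no term for the library number. Same-numbered Ery libraries did not deviate together (r = -0.003). With 2 libraries per group all Ery pairs give the same value up to its sign, so this cannot exclude that the numbers pair them. Few counts limit members under 5 CPM most.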
